A study of Mus musculus with 2 samples.

Results

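Endothelial cells, which line blood and lymphatic vessels, were examined in single-cell libraries of mouse limb muscle tissue at 2 embryonic ages, E12.5 and E15.5. A cell barcode was taken as endothelial if it had at least 500 detected genes, under 10% mitochondrial UMIs and at least 1 UMI of at least 3 of 8 genes: Pecam1, Cdh5, Kdr, Emcn, Cldn5, Tie1, Egfl7 and Esam. A UMI (unique molecular identifier) marks 1 captured RNA molecule. The members were thus chosen by their measured UMIs of these 8 genes. The rule found 157 endothelial barcodes among the 12271 kept barcodes in the E12.5 library and 153 among 4106 at E15.5, which is 310 of 16377 in all. Both libraries came from wild-type C57Bl/6 embryos, with fore- and hindlimbs together in the same library, and each was made with the 10x 3′ v3.1 chemistry. There was 1 library per age and neither the number of embryos nor their sex is given, so no test between ages was possible, and every 95% interval below covers counting error only.

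Blood vessels reach the limb bud early, first as a simple plexus, which is then remodelled into arteries, capillaries and veins. VEGF, made by the surrounding tissue, acts on endothelial cells through the receptors Kdr and Flt1, Notch ligands and receptors set arterial identity, and the factor Nr2f2 marks veins. Capillaries of muscle later carry the machinery for fatty acid uptake, while lymphatic vessels form as a separate tree under the factor Prox1.

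The endothelial barcodes were deeper than the rest of their libraries. They held 782451 UMIs in the E12.5 library and 2476490 at E15.5, with medians of 4243 and 12923 UMIs per barcode against 2437 and 9444 in the other kept barcodes. The rule needs detected UMIs, so deeper barcodes meet it more easily. Kept barcodes with 0, 1 and 2 rule genes had medians of 2417, 2862 and 4104 UMIs in the E12.5 library. At E15.5 these medians were 8830, 11241 and 14212.5 UMIs. The libraries shared 17 barcode sequences, of which 0 were endothelial in either library. This difference in depth touches every count of barcodes with a UMI below. Those counts are unthinned unless said otherwise, and for the main genes shares after thinning each barcode to 2000 UMIs are given after the largest differences.

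Most members stood well clear of the threshold, but some at E15.5 did not. At E12.5, 148 of the 157 members had 5 or more of the 8 genes, and 1 had exactly 3. At E15.5, 105 of the 153 members had all 8 genes and 134 had 5 or more, but 15 had exactly 3 and 4 had exactly 4. Barcodes just outside the threshold, with 2 of the genes, held a median of 2 UMIs of the rule genes at both ages (23 barcodes in the E12.5 library and 112 at E15.5). Barcodes just inside it held 7 UMIs in the single barcode in the E12.5 library and a median of 5 at E15.5. The plot of rule genes per barcode shows a sparse stretch at 3 and 4 genes in the E12.5 library, with 1 and 8 barcodes, and a shoulder there at E15.5.

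**Figure D1:**
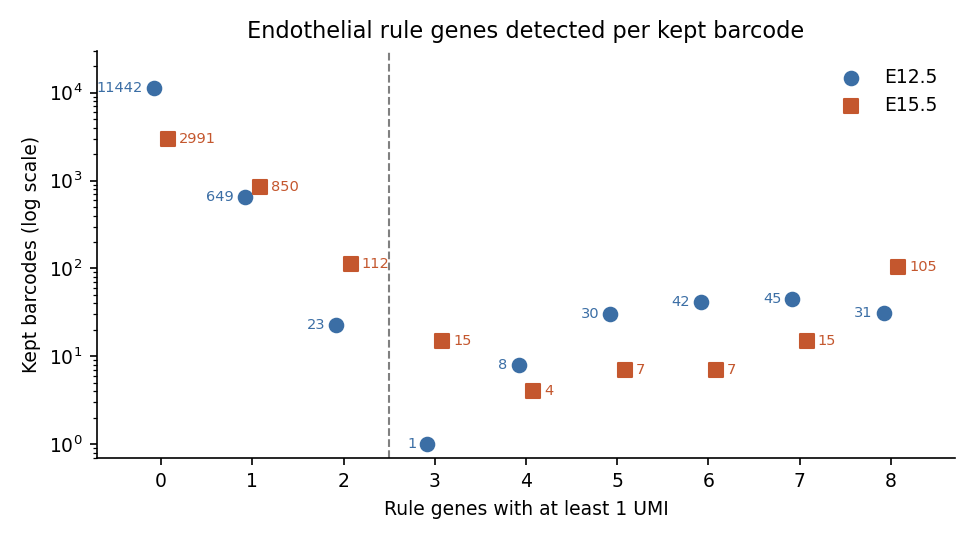
Number of kept barcodes (log scale) by how many of the 8 rule genes had at least 1 UMI, in the E12.5 library (circles) and the E15.5 library (squares); the dashed line is the threshold. At E15.5, 105 barcodes had all 8 genes and 15 had exactly 3, next to 112 with 2.

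The label was checked on 26 endothelial genes outside the rule, among them Tek, Flt1, Erg, Fli1, Sox17 and Plvap. Members had a median of 13 of these genes in the E12.5 library and 19 at E15.5, and all 26 were at least 2-fold higher in the endothelial than in the other barcodes at both ages. The label did not hold for part of the 19 barcodes with 3 or 4 rule genes at E15.5. Of these, 7 had between 13 and 47 UMIs of Rgs5, a gene of pericytes, the cells that wrap capillaries. Another had 592 UMIs of the mast cell protease gene Cma1, 1 had 985 UMIs of S100a8 and 1668 of S100a9, both genes of neutrophils, and 2 had at least 50 UMIs of the collagen gene Col1a1. These 19 barcodes carried 9.35% of the endothelial UMIs at E15.5, and their level of the 26 genes summed to 492 CPM (UMIs per 1000000 UMIs) against 6082 CPM in the 134 others. The 9 such barcodes at E12.5 summed to 4273 CPM. Values at E15.5 are therefore also given for the barcodes with 5 or more rule genes wherever these 19 bear on them.

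Endothelial barcodes made up a larger share of the E15.5 library. After thinning, 134 of 8212 kept barcodes (1.63%, exact binomial interval 1.37% to 1.93%) met the rule in the E12.5 library and 132 of 3834 (3.44%, 2.89% to 4.07%) at E15.5. The shares differed by 1.81 percentage points (Newcombe interval 1.20 to 2.49). Without thinning the shares were 1.28% and 3.73%. With 5 or more rule genes required they were 1.07% and 2.53% after thinning, and 1.21% and 3.26% without it. How the tissue was dissected and dissociated can set such shares, and its part was not tested.

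Besides the 8 rule genes, a common set of genes set these barcodes apart at both ages. Of the genes compared, 764 of 13645 (5.6%) in the E12.5 library and 717 of 13871 (5.17%) at E15.5 were at least 2-fold higher in the endothelial than in the other barcodes, with 10 CPM added to both sides. Since the rule chose the barcodes by expression in the same cells, these values describe them and were not tested. The 15 genes outside the rule with the largest fold at both ages were Cd93, Plvap, Cav1, Ecscr, Flt1, Apold1, Adgrf5, Pdgfb, Plxnd1, Ctla2a, Icam2, Gimap6, Rasip1, Aplnr and S1pr1. Plvap, which forms the diaphragms of endothelial pores, was at 491 CPM in the E12.5 library and 342 at E15.5, with 1.07 and 1.13 CPM in the other barcodes. Aplnr, the apelin receptor of veins and sprouting vessels, was at 188 and 228 CPM against 0.327 and 0.0963. Pdgfb, the ligand by which endothelium recruits pericytes, was at 629 and 590 CPM against 5.03 and 15.4. All 3 were thus near the same level at both ages, within 2-fold, and low in the other barcodes.

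Transcription factors of the ETS family, such as Erg and Fli1, are known to bind many endothelial promoters, around a core that AGGAAG contains. Promoter windows of RefSeq (GRCm38.p6, 250 bases before to 50 bases after the start) were at hand for 8 of the 15 genes, and 7 of the 8 held AGGAAG on either strand, against 38.4% of the 27018 genes with a window. For the 34 endothelial genes in or outside the rule, 17 had a window and 11 of these held it. A match is a description of the letters only. The windows below belong to genes that the results turn on, with AGGAAG (or CTTCCT, its reverse complement) and AGGTCA (or TGACCT), an element that nuclear receptors bind, in capitals. For a gene with more than 1 window, the one with the lowest start position is shown. The window of Flt1, the VEGF receptor that holds ligand back, lies at chr5:147725962-147726261 on the minus strand. That of Cavin2, a coat protein of the membrane pits called caveolae, lies at chr1:51288876-51289175 on the plus strand. That of Kcne3, a potassium channel subunit, lies at chr7:100176420-100176719 on the plus strand. That of Cd36, a fatty acid transporter, lies at chr5:17835847-17836146 on the minus strand, inside the annotated gene (chr5:17781690-17888801). The Flt1 window held 2 matches to AGGAAG, those of Cavin2 and Kcne3 held 1 each, and that of Cd36 held 0 but 1 match to AGGTCA, which 18.1% of all genes with a window hold.
Flt1: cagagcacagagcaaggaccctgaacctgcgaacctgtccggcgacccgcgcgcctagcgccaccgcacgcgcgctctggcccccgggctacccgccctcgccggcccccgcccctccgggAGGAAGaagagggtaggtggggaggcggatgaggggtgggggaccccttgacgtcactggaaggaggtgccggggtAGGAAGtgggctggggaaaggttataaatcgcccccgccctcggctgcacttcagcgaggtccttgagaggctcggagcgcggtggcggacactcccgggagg
Cavin2: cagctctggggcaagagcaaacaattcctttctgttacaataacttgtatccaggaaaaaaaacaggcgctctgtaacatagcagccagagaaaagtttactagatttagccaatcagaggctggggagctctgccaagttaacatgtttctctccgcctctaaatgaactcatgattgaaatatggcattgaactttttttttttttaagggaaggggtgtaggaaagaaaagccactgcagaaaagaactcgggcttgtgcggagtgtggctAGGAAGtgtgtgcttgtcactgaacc
Kcne3: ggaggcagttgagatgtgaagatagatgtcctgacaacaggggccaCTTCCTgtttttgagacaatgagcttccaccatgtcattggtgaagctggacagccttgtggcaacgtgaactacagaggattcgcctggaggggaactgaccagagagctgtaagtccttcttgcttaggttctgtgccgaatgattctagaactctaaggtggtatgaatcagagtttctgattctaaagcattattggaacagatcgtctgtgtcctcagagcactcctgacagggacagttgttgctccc
Cd36: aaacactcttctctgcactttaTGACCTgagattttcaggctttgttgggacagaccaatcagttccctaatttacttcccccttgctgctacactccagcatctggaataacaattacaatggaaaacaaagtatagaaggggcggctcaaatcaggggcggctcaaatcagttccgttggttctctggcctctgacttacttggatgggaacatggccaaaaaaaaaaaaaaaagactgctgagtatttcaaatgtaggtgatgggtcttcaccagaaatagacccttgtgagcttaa

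The comparison of ages used 7169 genes with at least 50 UMIs over the endothelial barcodes of both libraries. Of these, 405 (5.65%) were at least 2-fold higher and 702 (9.79%) at least 2-fold lower at E15.5, in CPM of the summed UMIs. The median gene was at a log2 ratio of -0.22 in the endothelial and -0.26 in the other barcodes. The balance of the counts depends on this shift: relative to the median gene, 649 genes were higher and 345 lower, and with mitochondrial, ribosomal protein and haemoglobin genes left out of the totals, 536 were higher and 477 lower. Among barcodes with 5 or more rule genes the counts were 356 higher and 681 lower. Log2 ratios below are of CPM, E15.5 over E12.5.

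Genes of capillaries and fatty acid uptake were higher at E15.5. Of the 14 tested among 19 genes of capillary and mature vessels, 10 were at least 2-fold higher and 0 lower, with a median log2 ratio of 2.76 (2.84 with 5 or more rule genes). The background is the 5.65% of all genes tested that were higher by 2-fold. The same 14 genes had a median of 2.39 in the other barcodes, so the list was also higher outside the endothelium.

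Fabp4 (ENSMUSG00000062515, chr3:10204088-10208576), a carrier of fatty acids inside the cell, had 10 UMIs in the E12.5 library and 4808 at E15.5. That is 12.8 CPM (exact Poisson interval 6.13 to 23.5) and 1941 CPM (1887 to 1997), a log2 ratio of 7.25 (6.37 to 8.31). The UMIs came from 9 of 157 barcodes at E12.5, none with more than 2, and from 118 of 153 at E15.5, where the median barcode had 10.4 and the highest 95.7 UMIs per 10000. In the other barcodes Fabp4 was at 0.0892 and 10.3 CPM.

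Gpihbp1 (ENSMUSG00000022579, chr15:75596628-75599481), which carries lipoprotein lipase to the capillary lumen, was at 51.1 and 491 CPM, a log2 ratio of 3.26 (2.81 to 3.76). It was the more restricted of the lipid genes, at 0.0595 and 0.313 CPM in the other barcodes. Cd36 (ENSMUSG00000002944) was at 8.95 CPM in 4 barcodes in the E12.5 library and at 206 CPM in 100 barcodes at E15.5, for a log2 ratio of 4.52 (3.47 to 5.84). Fabp5, a second fatty acid carrier, was at 151 and 1109 CPM, with 178 and 677 CPM in the other barcodes. The lipase gene itself, Lpl, had 6 and 14 endothelial UMIs, too few to be tested.

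Caveolae genes followed in part. Cavin2 (ENSMUSG00000045954) was at 51.1 and 707 CPM, a log2 ratio of 3.79 (3.34 to 4.28), with 22 and 130 barcodes holding a UMI. Cav1, the caveolin of these pits, was at 289 and 851 CPM (1.56, 1.36 to 1.76), whereas Cav2 (0.70) and Cavin1 (0.46) were within 2-fold. In the other barcodes Cav1 was at 0.952 and 16.9 CPM.

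Further members of the list were the water channel Aqp1 (8.95 and 118 CPM, 3.73), the cell cycle regulator Rgcc (43.5 and 270 CPM, 2.63), the surface proteins Ly6c1 (1.28 and 35.9 CPM, 4.81) and Ly6e (17.9 and 134 CPM, 2.91), and the receptor partner Ramp2 (265 and 564 CPM, 1.09). Ly6c1 had 1 UMI in the E12.5 library, so its interval is wide (2.30 to 10.1), and its ratio in the other barcodes was 4.01. Plvap (-0.52) and Cd34 (-0.25) lay below 0. Shares of barcodes with a UMI went the same way as the CPM for Fabp4, Gpihbp1 and Cavin2, as the plot of levels per barcode shows.

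**Figure D2:**
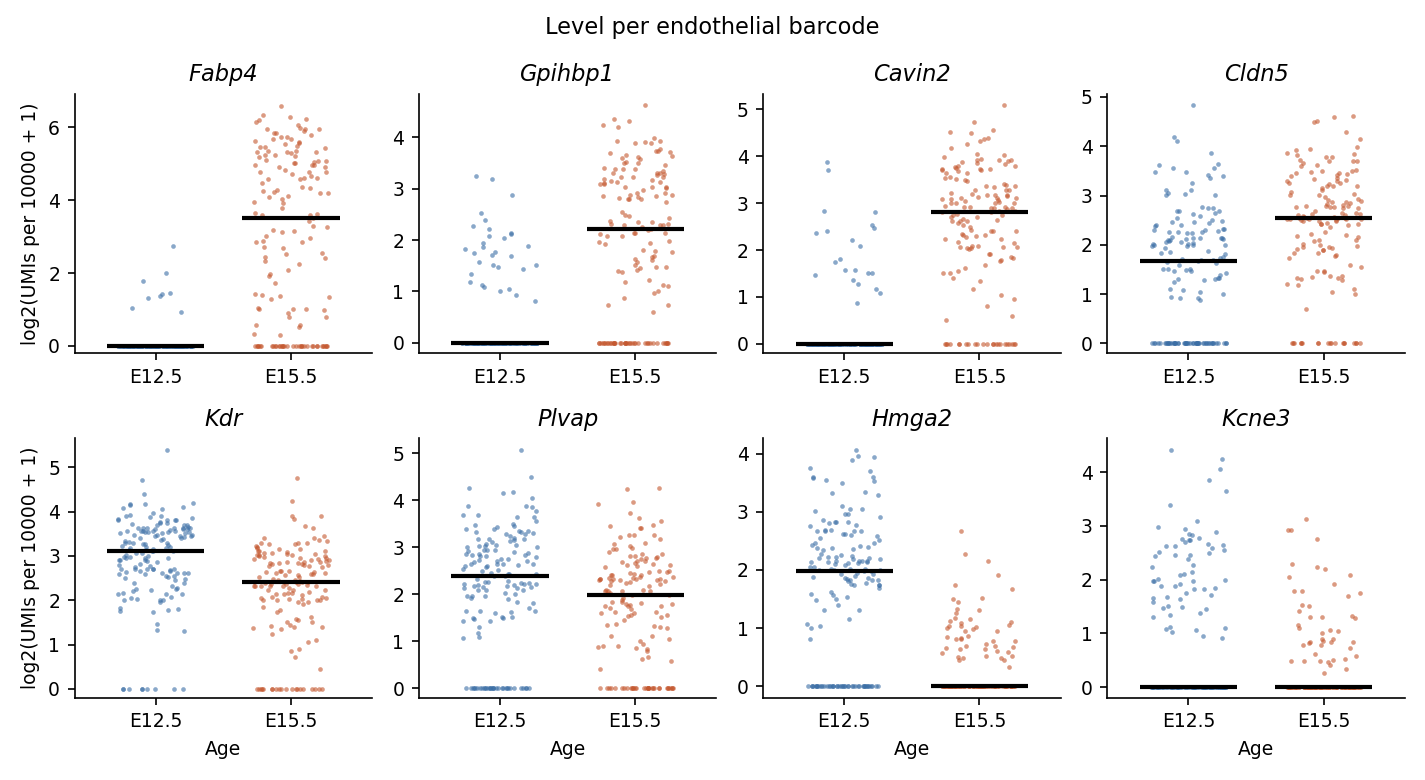
Level of 8 genes in each endothelial barcode, as log2 of UMIs per 10000 plus 1, at E12.5 (157 barcodes) and E15.5 (153 barcodes); each point is a barcode, spread sideways at random, and the bar is the median. The Fabp4 median is 0 in the E12.5 library and 10.4 UMIs per 10000 at E15.5, while Hmga2 has its points high in the E12.5 library and a median of 0 at E15.5.

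Junction genes were mixed around a median of -0.0037 over 20 tested of 21, with 4 higher by 2-fold and 0 lower. The shares over all genes tested were 5.65% higher and 9.79% lower. Cldn5 (ENSMUSG00000041378, chr16:18776847-18778262), the main claudin of endothelial tight junctions and one of the rule genes, was at 244 and 591 CPM (1.28, 1.06 to 1.50). Jam2 (6.39 and 31.5 CPM, 2.30), Cdh13 (28.1 and 67.0 CPM, 1.25) and the connexin gene Gja4 (52.4 and 106 CPM, 1.01) were the other 3. Gja4 had 29.4% of its UMIs at E15.5 in 1 barcode and was at 0.51 without it. Cdh5, the endothelial cadherin, was at 1578 and 1052 CPM (-0.59, -0.68 to -0.49), and Pecam1 at 776 and 527 CPM (-0.56). Since the rule used Cldn5, Cdh5 and Pecam1, their levels describe the barcodes that it chose.

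Genes of immunity and antigen presentation were higher in both kinds of barcodes. Of 7 tested among 13, 6 were at least 2-fold higher and 0 lower, next to 5.65% and 9.79% of all genes tested. The median was 1.84 in the endothelial and 3.04 in the other barcodes. Ifitm3, an antiviral membrane protein, was at 93.3 and 482 CPM (2.37, 2.03 to 2.73), against 17.3 and 142 CPM in the other barcodes. Bst2, which tethers viruses at the cell surface, was at 97.1 and 347 CPM (1.84), and the class I gene H2-D1 at 37.1 and 113 CPM (1.61). B2m, the light chain of class I molecules, was at 152 and 275 CPM (0.85).

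A subset of the E15.5 barcodes held the interferon-induced genes Cxcl10 and Iigp1. Cxcl10, a chemokine, had 1 UMI in the E12.5 library and 240 at E15.5 in 23 barcodes, of which 1 barcode held 103. Iigp1, an interferon-induced GTPase, was at 26.8 CPM in 13 barcodes in the E12.5 library and at 205 CPM in 60 barcodes at E15.5, for a log2 ratio of 2.93 (2.31 to 3.64). Of the 23 barcodes with Cxcl10, 18 also had Iigp1. In the other barcodes Iigp1 was at 1.87 and 13.1 CPM.

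Of the VEGF receptors, Flt1 and Flt4 were lower at E15.5, by less than 2-fold. The list of VEGF ligands and receptors had 7 tested genes of 10, with 0 past 2-fold in either direction and a median of -0.46. Over all genes tested, 5.65% were higher and 9.79% lower by 2-fold. Kdr, the main signalling receptor, was at 803 and 500 CPM (-0.68, -0.82 to -0.54), Flt1 at 716 and 442 CPM (-0.69, -0.84 to -0.55) and Flt4, the receptor of Vegfc, at 120 and 69.4 CPM (-0.79, -1.16 to -0.41). All 3 also lay below the median gene (-0.22). The rule used Kdr, as it used Tie1, so the levels of these 2 describe the barcodes that it chose. In the other barcodes, where they were far lower, Kdr (2.17 and 5.68 CPM) and Flt1 (2.11 and 7.63 CPM) were higher at E15.5. The Tie receptors Tek (88.2 and 99.7 CPM) and Tie1 (219 and 257 CPM) and the phosphatase Ptprb that acts on them had ratios of 0.18, 0.23 and 0.22, within 2-fold.

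Tip cells are the cells that lead a sprout. Of the 11 genes tested among 14 of this list, 2 were at least 2-fold lower, 1 was higher and the median was -0.31. The share of all genes tested that were lower by 2-fold was 9.79%, and 5.65% were higher. Kcne3 (ENSMUSG00000035165, chr7:100176502-100184869), whose window is shown above, was at 198 CPM in 65 barcodes and at 58.1 CPM in 47, a log2 ratio of -1.77 (-2.11 to -1.43). Esm1, a secreted proteoglycan of sprouting endothelium, was at 128 and 44.8 CPM (-1.51, -1.91 to -1.11). Apln, the apelin gene, was at 57.5 and 57.3 CPM, the Notch ligand gene Dll4 at 111 and 89.6 CPM and the netrin receptor gene Unc5b at 85.6 and 84.8 CPM, all within 2-fold. The gene that was higher, Plaur, had 2 and 48 UMIs (2.92, 0.99 to 6.01).

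Most basement membrane genes lay within 2-fold between the ages in the endothelial barcodes. Of 13 tested among 14, 2 were at least 2-fold lower, next to 9.79% of all genes tested, and 0 were higher. Below 0 lay 11 of the 13, next to 62.1% of all genes tested. The median was -0.64 in the endothelial and 0.62 in the other barcodes. Lamc1 (321 and 126 CPM, -1.34, -1.59 to -1.10) and Lama4 (497 and 214 CPM, -1.22, -1.41 to -1.03) encode chains of the vessel laminin. Nid1 (354 and 178 CPM, -0.99) encodes a linker of laminin and collagen IV. Col4a1, a chain of collagen IV, was at 2275 and 1738 CPM (-0.39), while in the other barcodes it was at 118 and 248 CPM (1.08). Sparc (0.16) and Sparcl1 (0.30) were the exceptions above 0. The difference between endothelial and other barcodes was not tested.

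**Figure D3:**
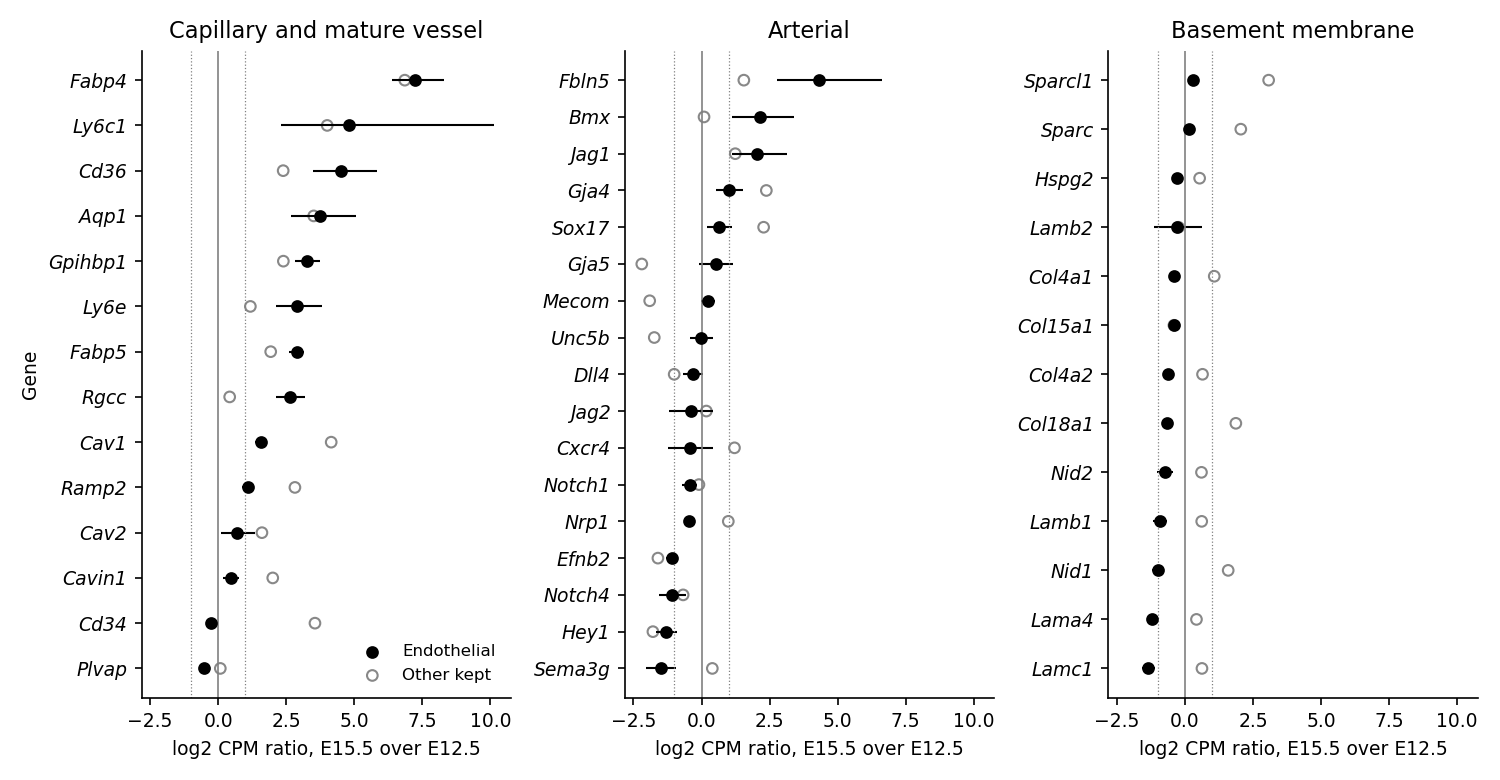
Log2 ratio of CPM, E15.5 over E12.5, for the tested genes of 3 lists; filled points with lines are the endothelial barcodes with 95% counting intervals, open circles the other kept barcodes, and dotted lines mark 2-fold. In the left panel 10 of 14 filled points lie past 2-fold; in the right panel 11 of 13 lie below 0 while most open circles lie above it.

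The endothelial transcription factors were near the median gene as a group. Of 26 tested among 30, 5 were at least 2-fold higher and 2 lower, with a median of -0.10, next to 5.65% and 9.79% of all genes tested. Meox1 was at 6.39 CPM in 5 barcodes in the E12.5 library and 58.1 CPM in 63 barcodes at E15.5 (3.19, 1.93 to 4.83). Its partner Meox2 was at 24.3 and 98.9 CPM (2.03) and Tcf15, which heads heart and muscle capillary programmes together with Meox2, at 52.4 and 116 CPM (1.15). In the other barcodes Meox1 was at 32.1 and 19.4 CPM and Tcf15 at 8.27 and 8.54 CPM.

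Klf2, a factor that blood flow induces, was at 144 and 630 CPM (2.12, 1.85 to 2.41), but also at 52.7 and 441 CPM in the other barcodes. The fifth factor was Prox1, described below with the lymphatic barcodes. The 2 that were lower were Ets1 (516 and 225 CPM, -1.20, -1.39 to -1.01) and the Notch target Hey1 (135 and 55.3 CPM, -1.29). The ETS factors Erg (133 and 82.8 CPM, -0.68) and Fli1 (284 and 239 CPM, -0.25), and Sox7 (-0.05) and Sox17 (0.64), were within 2-fold.

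Of the receptors and effectors of BMP and TGF-beta signalling, 12 of 14 were tested, 2 were at least 2-fold lower, 0 were higher and the median was -0.12. Since 9.79% of all genes tested were lower, 2 of 12 is near the background. The 2 were Tgfbr1 (71.6 and 21.8 CPM, -1.71) and Bmpr2 (249 and 101 CPM, -1.31), which were also lower in the other barcodes (-1.44 and -1.52). Eng, a co-receptor that vessels need, was at 267 and 231 CPM. Among coagulation and flow genes, 2 of 10 tested were higher by 2-fold, next to 5.65% of all genes tested. These were Klf2 and Procr, the protein C receptor gene (8.95 and 44.4 CPM, 2.31).

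Hmga2 and the 3 Igf2bp genes, known from early embryonic growth, were lower at E15.5, in the endothelial as in the other barcodes. In the heterochronic and foetal growth list 4 of 11 tested genes of 13 were at least 2-fold lower and 1 was higher, with a median of -0.08 (-0.60 with 5 or more rule genes), next to 9.79% of all genes tested that were lower and 5.65% that were higher. Hmga2, a chromatin protein of early embryonic tissue, was at 369 CPM in 112 barcodes and 43.2 CPM in 50 barcodes (-3.10, -3.43 to -2.77), with -3.92 in the other barcodes. The RNA-binding proteins Igf2bp1 (-1.38), Igf2bp2 (-1.63) and Igf2bp3 (-1.26) were the other 3. Dlk1 was higher at 32.0 and 158 CPM (2.31), but was at 0.50 among the barcodes with 5 or more rule genes. Of 25 proliferation genes, 24 were within 2-fold, with a median of -0.20, and the exception was Mcm4 (-1.11).

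The genes with the largest differences were then taken by rank among those at least 2-fold above the other barcodes at the age where the endothelial level was higher. Of the 12 higher at E15.5, 6 (S100a9, S100a8, Cstdc5, Stfa1, Cstdc4 and Camp) had over 90% of their UMIs in 1 barcode, the one with neutrophil genes, and Rgs5 came from the 7 barcodes described above and had 0 UMIs with 5 or more rule genes. The other 5 were Fabp4, Cxcl10, Ccl21a, Cd36 and Cavin2. Among barcodes with 5 or more rule genes the same rule kept these 5 and added Gkn3, Lypd1, Gpihbp1, Aqp1, Tm4sf1, Ly6c1 and Iigp1. Lypd1 had all of its 92 UMIs in 1 barcode. Tm4sf1, a membrane protein of migrating endothelium, was at 51.1 CPM in 31 barcodes and 348 CPM in 130 (2.77, 2.31 to 3.26), with 8.50 and 45.4 CPM in the other barcodes.

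Among the 12 lower at E15.5 were Syn3, 0610009E02Rik, Gm38287, Zfp69, Peg10, Exoc3l2, Kcne3, Adam12, Ddi2, Endod1 and Osmr, and 10 of the 12 were kept with 5 or more rule genes. Syn3, a gene of the synapsin family, was at 326 CPM in 92 barcodes and 30.7 CPM in 37 (-3.41, -3.80 to -3.03), and at 82.8 and 8.76 CPM in the other barcodes. Syn3 overlaps the gene Timp3, so its counts are less certain. Gm38287, a transcript without a gene name, was at 285 and 48.5 CPM (-2.56) against 9.84 and 2.09 CPM elsewhere. Peg10, an imprinted gene of retrotransposon origin, was at 474 and 124 CPM (-1.93). Osmr, a receptor for oncostatin M, had 32 and 24 UMIs (-2.08, -2.90 to -1.27).

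After thinning to 2000 UMIs, 143 endothelial barcodes of the E12.5 and 149 of the E15.5 library were used, and the shares with a UMI kept the direction of the CPM for each gene below. Fabp4 was detected in 1.40% and 60.4% of them, Gpihbp1 in 11.2% and 49.7%, Cd36 in 2.80% and 27.5%, and Cavin2 in 8.39% and 61.1%. Tm4sf1 was detected in 11.2% and 46.3%, Iigp1 in 5.59% and 20.1%, Meox1 in 1.40% and 12.8%, and Cxcl10 in 0.699% and 7.38%. Lower at E15.5 were Hmga2, in 47.6% and 4.70%, Syn3, in 31.5% and 2.68%, and Kcne3, in 27.3% and 8.05%. In the other barcodes the shares were 0.0248% and 0.896% for Fabp4, 0.0124% and 0.0543% for Gpihbp1, and 0.0372% and 0.353% for Kcne3, but 80.4% and 13.0% for Hmga2.

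Arterial and venous genes showed no common direction between the ages. Of 17 arterial genes tested among 18, 4 were higher and 4 lower by 2-fold, with a median of -0.31, and of 6 venous genes tested among 9, 0 passed 2-fold in either direction (median 0.13). Of all genes tested, 5.65% were higher and 9.79% lower. Fbln5, an elastic fibre protein (3.83 and 76.7 CPM, 4.32), Bmx, a kinase gene of arterial endothelium (10.2 and 45.2 CPM, 2.15), Jag1, a Notch ligand gene (12.8 and 52.5 CPM, 2.04), and Gja4 were the higher ones. Between 29.4% and 51.6% of their E15.5 UMIs lay in 1 barcode, the same one for all 4 genes, which held 59147 UMIs in all. Without that barcode the ratios were 3.28, 1.59, 1.19 and 0.51. The ratio of Fbln5 rests on few UMIs in the E12.5 library. Efnb2, the arterial ephrin gene (368 and 174 CPM, -1.08), Hey1 (-1.29), Notch4 (-1.08) and Sema3g (-1.48) were the lower ones.

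Within each age, however, arterial and venous genes separated barcodes. After thinning, and leaving the lymphatic barcodes described below aside, 31 of 142 barcodes (21.8%, 15.3% to 29.5%) in the E12.5 library and 29 of 141 (20.6%, 14.2% to 28.2%) at E15.5 had at least 2 of 8 arterial genes (Gja4, Gja5, Sox17, Bmx, Sema3g, Hey1, Dll4 and Unc5b). This is a range and not a cell type: 31 and 38 barcodes had exactly 1 of the genes and 15 and 11 had exactly 2, next to the limit. The limit was chosen with these values known, and the levels below use all UMIs of the barcodes and describe genes outside the 8.

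At E15.5 the 29 barcodes had 493 CPM of Efnb2 (427 to 566) against 86.4 (70.5 to 105) in the 74 barcodes with none of the 8 genes, 242 against 10.9 of Jag1, and 569 against 152 of Mecom. Among the venous genes, 3 went the other way, with Nr2f2 at 22.0 CPM (10.0 to 41.7) against 129 (110 to 151), Nrp2 at 68.3 against 286, and Aplnr at 56.1 against 278. The median barcode of the 29 had 0 UMIs of Nr2f2, Nrp2 and Aplnr, and the median of the 74 had 0.894, 2.44 and 2.76 UMIs per 10000. Ephb4, the venous Eph receptor, was at 61.0 against 44.4 CPM, with intervals that overlap. Vwf, also on the venous list, went with the arterial genes, at 183 CPM (144 to 229) against 32.7 (23.3 to 44.7), and at 97.0 CPM without the barcode that held most of it. General endothelial genes of the rule differed as well. Pecam1 was at 823 against 456 CPM, Cdh5 at 1343 against 911 CPM and Cldn5 at 920 against 478 CPM. Emcn was lower, at 320 against 470 CPM. The part of such differences in the arterial levels was not tested. All of the 29 and 62 of the 74 had 5 or more rule genes, and over those 62 Efnb2 was at 97.1 CPM and Nr2f2 at 133 CPM.

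The deep barcode of 59147 UMIs, described above, also held much of the arterial signal in this split. Without it Efnb2 was at 340 CPM and Jag1 at 117 CPM in the remaining barcodes, still above those with none of the genes. Gkn3, a gene of arterial endothelium, had 115 UMIs in 5 of the 29 barcodes and 0 in the 74, and the deep barcode held 63 of them. Fatty acid genes leaned to the barcodes without arterial genes, with Cd36 at 107 against 265 CPM and Fabp4 at 1448 against 2376 CPM, while Gpihbp1 was at 527 against 469 CPM. Iigp1 was at 61.0 against 227 CPM.

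At E12.5 the same genes gave the following levels. Efnb2 was at 575 CPM in the 31 barcodes against 303 in the 80 with none, Mecom at 301 against 139, Nr2f2 at 68.4 against 183, and Nrp2 at 198 against 329. Aplnr, at 164 (105 to 244) against 198 (160 to 243), had overlapping intervals. So had Jag1, with 4 UMIs on each side, at 27.4 CPM (7.46 to 70.1) against 8.71 (2.37 to 22.3). Ephb4, of the venous list, was at 123 CPM (73.0 to 195) against 67.5 (45.9 to 95.8), again with overlapping intervals. Vwf was at 144 CPM (88.9 to 220) against 15.2 (6.13 to 31.4). Apln was at 13.7 CPM, with 2 UMIs, against 67.5, while at E15.5 it was at 48.8 against 66.2. Of the rule genes, Pecam1 was at 1081 against 664 CPM and Cdh5 at 1881 against 1379 CPM. Cldn5, at 301 against 218 CPM, and Emcn, lower at 274 against 364 CPM, had overlapping intervals. The part of such differences in the arterial levels, and whether the split differed between the ages, were not tested.

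**Figure D4:**
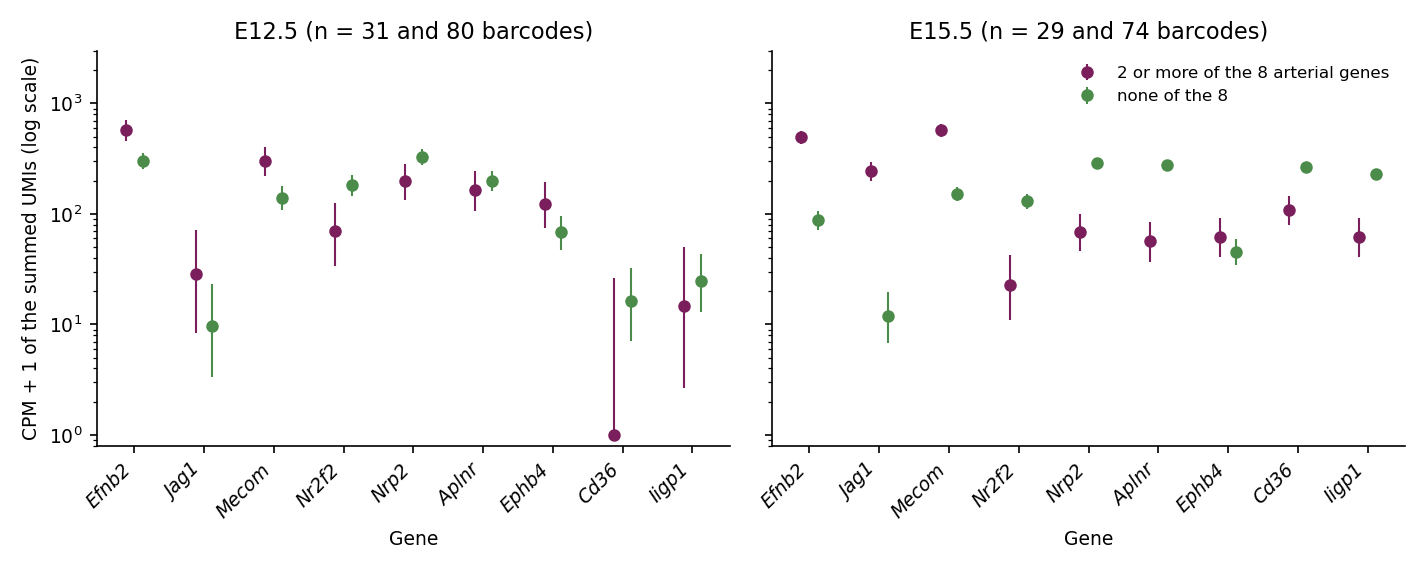
CPM plus 1 of the summed UMIs (log scale) of 9 genes outside the 8 used for the split, in barcodes with at least 2 of the 8 arterial genes and in barcodes with none, at each age; bars are 95% exact Poisson intervals. At E15.5 Nr2f2, Nrp2 and Aplnr lie lower, and Efnb2, Jag1 and Mecom higher, in the 29 barcodes than in the 74.

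Lymphatic-like barcodes were few, and most came from the E15.5 library. Of 7 lymphatic genes (Prox1, Lyve1, Flt4, Pdpn, Ccl21a, Mmrn1 and Reln), at least 4 were detected in 8 of 153 barcodes (5.23%, 2.28% to 10.0%) at E15.5 and in 1 of 157 (0.637%, 0.0161% to 3.50%) at E12.5. At E15.5 0 barcodes had exactly 3 of the genes, and at E12.5 1 had. These shares move with depth. After thinning, at least 4 genes were detected in 1 of 149 barcodes (0.671%, 0.0170% to 3.68%) at E15.5. At E12.5 they were detected in 0 of 143 (exact upper bound 2.55%). At least 3 were then detected in 6 of 149 (4.03%, 1.49% to 8.56%) and 1 of 143 (0.699%, 0.0177% to 3.83%), with intervals that overlap. Of the rule genes, Esam had 0 UMIs in the 8 barcodes at E15.5 and Emcn was detected in 2 of them. The endothelial rule can thus also set these shares, and its part was not tested. The 8 barcodes held between 4 and 7 rule genes and between 9103 and 83594 UMIs. One of them also held 48 UMIs of Myog and 64 of Actc1, both muscle genes. They carried 853 of the 854 UMIs of Ccl21a, the chemokine that draws immune cells into lymphatics, 90 of 91 of Lyve1, a hyaluronan receptor, and 106 of 128 of Prox1, the factor that sets lymphatic identity. All 3 genes are among the 7 by which these barcodes were chosen, so their counts describe the choice. Ccl21a has near-identical copies in the mouse genome, so its UMIs may belong to the group.

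Several blood vessel genes were low in the same 8 barcodes. Flt1 had 1 UMI in them (5.07 CPM) against 480 CPM in the other 145 barcodes, Emcn 5 UMIs (25.4 against 454 CPM), Plvap 7 UMIs (35.5 against 368 CPM) and Fabp4 22 UMIs (112 against 2100 CPM). Cldn5, at 924 against 562 CPM, and Nr2f2, at 228 against 101 CPM, were higher in them, and Kdr was at 563 against 494 CPM with overlapping intervals. The endothelial rule used Emcn, Cldn5 and Kdr, so their levels describe the barcodes that it chose. Not all endothelial genes outside the rule were low. Ecscr was at 507 against 411 CPM and Cavin2 at 680 against 710 CPM, both with overlapping intervals. Flt4, which the rule for these barcodes used, was also present in the blood vessel barcodes at 49.1 CPM. As a list, 3 of 4 tested lymphatic genes of 8 were at least 2-fold higher at E15.5, next to 5.65% of all genes tested. The median was 2.43. The 3, Prox1, Lyve1 and Ccl21a, passed the UMI minimum only through the lymphatic-like barcodes, so the count and the median describe those barcodes. The fourth was Flt4 (-0.79, and -1.27 without these barcodes). Without the lymphatic barcodes Prox1 had 4 UMIs in the E12.5 library and 22 at E15.5, Lyve1 had 0 and 1, and Ccl21a had 1 at each age. In the alternative that removes the highest doublet scores, all 8 and the single barcode at E12.5 were removed.

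Markers of other cell types were present at low levels. The erythroid list summed to 1260 and 1093 CPM, against 2471 and 2541 CPM in the other barcodes. At E12.5 the 5 genes of the chondrocyte list summed to 661 CPM in the endothelial and 2400 CPM in the other barcodes, against 10.5 and 413 CPM at E15.5. Col2a1, the main cartilage collagen, was at 309 CPM in 42 endothelial barcodes in the E12.5 library and 3.63 CPM at E15.5 (-6.41), and at 1066 and 197 CPM in the other barcodes. Sox9 (-5.10), Col9a1 (-5.98), Col11a1 (-4.73) and Shox2 (-3.62), genes of cartilage and limb mesenchyme, went the same way. The connective tissue list summed to 288 and 506 CPM against 2690 and 8124 CPM in the other barcodes, and the mural list to 81.8 and 239 CPM. Both rest in large part on the 19 barcodes at E15.5. With 5 or more rule genes the sums were 284 and 241 CPM for connective tissue and 77.9 and 40.1 CPM for mural genes. Of the 134 such barcodes at E15.5, 30 still held at least 3 connective tissue markers, next to 15 of 148 at E12.5. At least 3 chondrocyte markers were held by 17 of the 157 endothelial barcodes at E12.5. Of the mast cell genes higher at E15.5, Cma1, Cpa3 and Tpsb2 had over 98% of their UMIs in 1 barcode. Eln (5.05) and Mgp (4.19) were also higher at E15.5, but lower than in the other barcodes at both ages. The deep barcode of 59147 UMIs held 133 of the 209 Eln and 211 of the 403 Mgp UMIs at E15.5. Without it the ratios were 3.59 and 3.12. Haemoglobin genes had 990 and 2701 UMIs, of which 867 and 2429 lay in 1 barcode at each age. Free RNA in the droplets and mixed droplets can give such counts, and their part was not tested.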

How the data were processed

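Single-cell RNA was measured in 1 library per age with the 10x 3′ v3.1 chemistry. The authors deposited raw UMI counts per gene and barcode, made with Cell Ranger 4.0.0 per the file headers. The submitters' processing notes also name Seurat 4.3.0 and the build mm10, with no role given. The deposited libraries held 12941 and 5780 barcodes, with 34907675 and 46966083 UMIs. Gene positions came from GENCODE vM21 (GRCm38), which matched 32158 of 32285 IDs and 7166 of 7169 tested genes, and promoter windows from RefSeq (GRCm38.p6).

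UMIs were summed over the endothelial barcodes of each library and scaled to CPM. Genes with at least 50 UMIs over both libraries were compared, and a log2 CPM ratio of 1 or more in size was called. With 1 library per age there is no test. Intervals are at 95% and cover counting error only: exact Poisson for levels, exact binomial for shares and Newcombe for their difference. A count of 0 was set to 3 counts for ratios. Thinning drew 2000 UMIs per barcode (seed 0). Doublets were kept in the main values, and an alternative removed the highest doublet scores, 10.3% and 4.63% of the kept barcodes of the E12.5 and E15.5 libraries. The other alternatives changed the rule genes needed, the barcode filter, other-class markers, scaling, weighting, depth and the UMI minimum. The counts and ratios were tested on simulated data.

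Named genes were the 12 with the highest lower bound and the 12 with the lowest upper bound of the ratio among genes at least 2-fold above the other barcodes, 5 each way among the remaining genes, and the 15 with the largest fold over the other barcodes. Mitochondrial, ribosomal protein, haemoglobin, Xist and Y-linked genes were left out of them. One gene that met this rule is not reported here. The members and gene lists were chosen with earlier results of these data known, and the arterial and lymphatic criteria after their values were seen. Python 3.11.15, numpy 2.4.6, scipy 1.17.1, pandas 2.3.3, scikit-learn 1.9.0 and matplotlib 3.10.9 were used.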

Additional observations from a re-analysis of the deposited data

Results flagged for a closer look

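For 8 genes the endothelial and the other barcodes differed between the ages in opposite directions, each by at least 2-fold, and this difference was not tested. Lower at E15.5 in the endothelial and higher in the other barcodes were Adam12, a membrane protease (-1.93 against 1.35), Sncg, a synuclein (-1.84 against 2.40), Kcne3 (-1.77 against 3.23), Sema6d, a semaphorin (-1.54 against 1.35), and Lcp1, an actin-bundling protein (-1.43 against 1.55). Kcne3 stayed far higher in the endothelial barcodes at both ages, at 198 and 58.1 CPM against 0.416 and 3.90 CPM. Higher in the endothelial and lower in the other barcodes was Rflnb, a partner of filamin (1.82 against -1.58). Ngp, a neutrophil granule gene, was at 2.88 or more against -2.60, with all of its 70 endothelial UMIs in 1 barcode, the one with other neutrophil genes. Phkg1, a phosphorylase kinase subunit, was at 3.45 against -1.36, and 49 of its 104 endothelial UMIs at E15.5 lay in 1 barcode.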

How the results depend on the processing

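The count of genes at least 2-fold higher was 405, and it was 649 relative to the median gene, 90 after thinning each barcode to 2000 UMIs, 947 with a minimum of 10 UMIs and 136 with a minimum of 200. The count of genes lower was 702, and it was 345, 185, 1593 and 166 under the same settings. Fewer or more genes enter the comparison when the minimum or the depth is changed. It held 7169 genes in the main setting and relative to the median gene, and 1886 after thinning. With a minimum of 10 UMIs it held 11159 genes, and with a minimum of 200 it held 2777. The counts are to be read against these totals. The median of the lymphatic list reversed to -1.42 with the highest doublet scores removed, since all lymphatic-like barcodes were then gone and Flt4 was the only member tested. The difference in endothelial share lay between 1.46 and 2.45 percentage points under all alternatives run, against 1.81. For the 34 genes named for age, a setting was left out where the gene had at most 3 UMIs at both ages. It was also left out where a count of 0 at 1 age gave a bound without a direction. In the settings that remained, each of the 34 genes had 1 sign. Of 19 list medians, 9 had 1 sign in all settings. With no setting left out, 9 of the 34 genes were below 0 without their top barcode (S100a9, S100a8, Cstdc5, Stfa1, Cstdc4, Camp, Cma1, Cpa3 and Tpsb2), and these and Rgs5 were with 5 or more rule genes. Doublet scores removed 41 of 157 and 17 of 153 endothelial barcodes. No paired analysis was possible because each age has 1 library and no test was made. Depth limits genes with few UMIs at E12.5, where the endothelial barcodes held 782451 UMIs.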
